A study of Homo sapiens with 9 samples.

Results

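The noradrenergic core circuit factors examined here are 8 transcription factor genes, PHOX2A, ISL1, GATA2, GATA3, TBX2, TFAP2B, SOX11 and KLF7. They were taken from the deposited expression table by gene symbol, and all 8 were found among its 25084 genes. The cells were LAN5, an established human neuroblastoma line with amplified MYCN. RNA from 3 groups of 3 libraries each was sequenced 72 h after nucleofection, an electroporation method that carries small interfering RNAs (siRNAs) into cells. One group received a control siRNA (siCTR), one an siRNA against MYCN (siMYCN, named siMYCN_2 in the labels) and one an siRNA against HAND2 (siHAND2, named siHAND2_3 in the labels), all in the same growth medium and from 1 cell line. The labels name 1 siRNA for each target, so effects of lowering a target and other effects of that siRNA sequence cannot be told apart. The labels do not say that the 3 libraries of a group came from separate cultures, so the p-values measure the spread between libraries, which may be technical.

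Neuroblastoma arises from the sympathetic branch of the neural crest. Cells in its noradrenergic (adrenergic) state share a set of transcription factors that bind their own and each other's regulatory regions, an arrangement called a core regulatory circuit, and that keep catecholamine and neuronal genes active. MYCN and HAND2, the factors lowered here, are helix-loop-helix proteins that bind E-box sequences and belong to the same circuit in MYCN-amplified cells. Cells of the other, mesenchymal state use a different set of factors.

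Levels are in CPM, the usual library-scaled read count of a gene, and the smallest CPM step put the depth at 21.1 to 32.7 M reads per library. MYCN lay at 1786 to 1894 CPM in siCTR, 1245 to 1338 CPM in siMYCN and 877 to 969 CPM in siHAND2, so siHAND2 cells held less MYCN transcript than siMYCN cells. HAND2 lay at 489 to 516, 557 to 588 and 267 to 280.4 CPM in the same order. Thus each targeted gene was lower in its own knockdown, MYCN was lower in both, and HAND2 was higher in siMYCN than in siCTR. The siHAND2 libraries 1 and 3 differed most among replicates, with a chi-square per degree of freedom of 8.92 between them and 8.17 between libraries 2 and 3, against 2.91 to 5.78 for the other pairs. The Schwann and glial markers in the table (6 of 8 genes) summed to 2.25 to 2.97 CPM in siCTR, 3.19 to 3.44 CPM in siMYCN and 2.60 to 2.75 CPM in siHAND2, and 4 of the 6 stayed under 1 CPM in every library. The fibroblast, endothelial and blood cell markers (7 genes) summed to 89.0 to 94.5, 98.3 to 107 and 177 to 211 CPM, and 4 of the 7 stayed under 1 CPM in every library. That rise in siHAND2 came with 2 genes of the list, PDGFRB (164 to 198 CPM in siHAND2, 87.6 to 93.3 CPM in siCTR) and DCN (10.2 to 11.7 CPM, against 0.374 to 0.522 CPM), and its part in the results below was not tested. In such bulk samples fewer cells of a type and less RNA per cell cannot be told apart.

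All 8 factors were well expressed, and none fell below 65.1 CPM in any library. Per kilobase of the GENCODE canonical transcript, ISL1 was the most abundant in siCTR (84.4 ± 1.46 CPM per kb, SD, n = 3 libraries), followed by SOX11 (60.4 ± 3.42 CPM per kb), PHOX2A (52.1 ± 1.52 CPM per kb) and GATA2 (39.1 ± 2.46 CPM per kb). TBX2 (32.5 ± 1.37 CPM per kb) and GATA3 (31.7 ± 1.67 CPM per kb) did not differ beyond their spread, and KLF7 (23.1 ± 0.441 CPM per kb) and TFAP2B (13.6 ± 0.343 CPM per kb) had the lowest levels. With the union of all annotated exons as the length, ISL1, SOX11, PHOX2A and TFAP2B kept their ranks and TBX2 moved from rank 5 to rank 7.

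The comparison of siMYCN with siCTR asked how the circuit's factors stood when MYCN was lowered. The levels of 6 of the 8 factors rose and none fell. ISL1, GATA2, GATA3, TFAP2B, SOX11 and KLF7 passed an adjusted p of 0.05 (limma on log2(CPM + 1), Benjamini-Hochberg over 14495 genes). PHOX2A and TBX2 did not pass. Among all tested genes 35.9% were called in this comparison, 24.5% as higher. The rises were small, with a median log2 fold change of 0.22 over the 8 factors against 0.06 over all tested genes. In all 8 the 3 siMYCN libraries lay above the 3 siCTR libraries, as they did for 33.4% of all tested genes (49.5% had no overlap in either direction). The gap was narrow for TBX2 (lowest siMYCN library 118 CPM, highest siCTR library 116 CPM) and GATA3 (104 and 102 CPM).

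With HAND2 lowered, in siHAND2 against siCTR, where MYCN was lower as well, the factors parted. ISL1, SOX11, TBX2, GATA2 and GATA3 rose, KLF7 and TFAP2B fell, and PHOX2A did not pass the test (limma, adjusted p under the same threshold). That made 7 of 8 called, beside 29.9% of all tested genes, of which 18.1% were higher and 11.8% lower. In 7 of 8 the siHAND2 and siCTR libraries did not overlap, 5 higher and 2 lower, beside 42.4% of all tested genes (25.8% higher, 16.6% lower). The median log2 fold change was 0.22 over the 8 factors and 0.04 over all tested genes. Both comparisons use the same siCTR libraries, so they are not independent of each other.

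The direct comparison of siHAND2 with siMYCN tested the difference between the knockdowns. ISL1, SOX11 and TBX2 were higher in siHAND2, KLF7, TFAP2B and PHOX2A were lower, and GATA2 and GATA3 did not pass, so 6 of 8 were called beside 26.9% of all tested genes (11.4% higher, 15.5% lower). The libraries of the knockdowns did not overlap for 5 of 8, namely ISL1, SOX11, TBX2, KLF7 and TFAP2B, beside 38.7% of all tested genes (17.1% higher, 21.6% lower). The scaling of the libraries moved the balance over all genes. Of the genes called in siMYCN 68.3% were higher with the deposited CPM, and 51.2% were with median-ratio rescaling and 49.3% with quantile normalization. In siHAND2 these shares were 60.6%, 47.1% and 47.8%. The directions of the 8 factors in the 2 comparisons with siCTR did not change under either rescaling, but some calls did. Under both rescalings GATA3 lost its calls in siMYCN and siHAND2, and KLF7 lost its call in siMYCN.

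**Figure D1:**
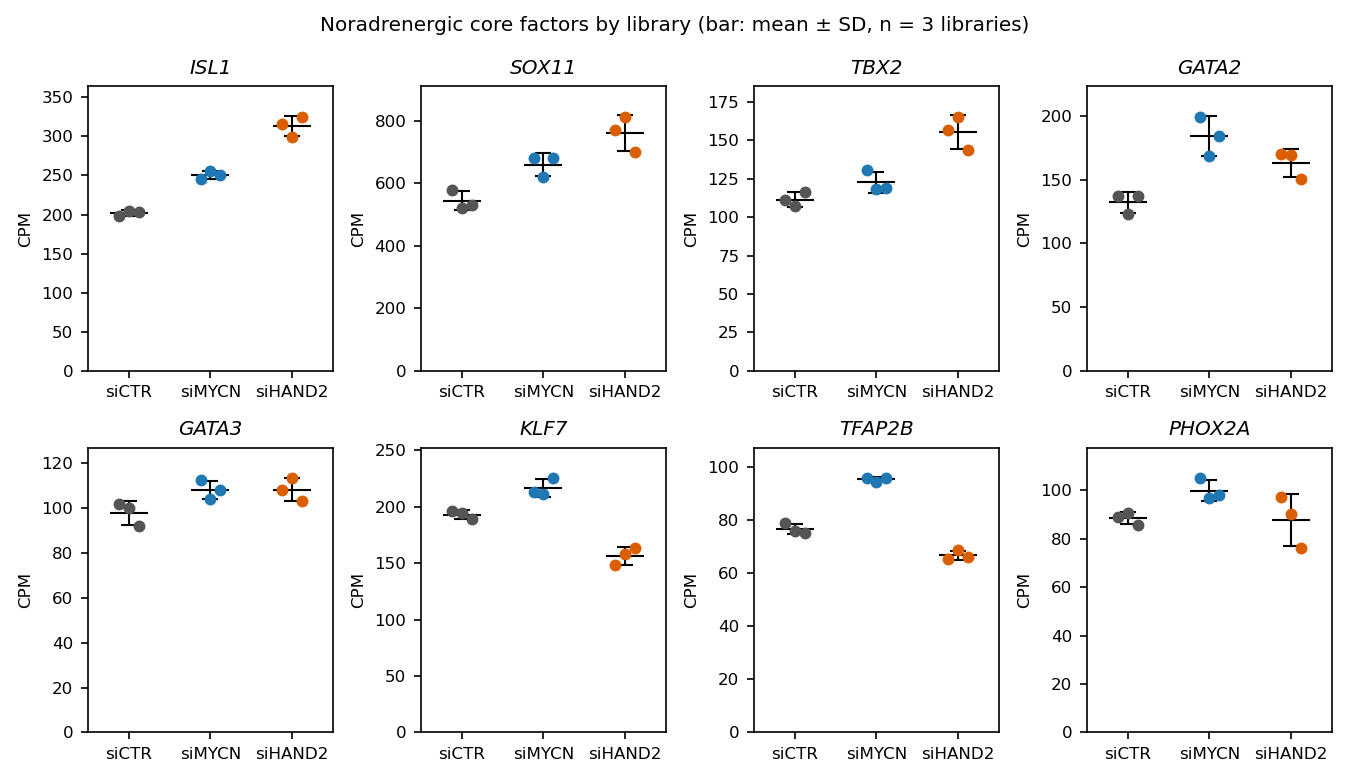
CPM (vertical axes, from 0) of the 8 factors in each of the 9 libraries, with the mean and SD of each group of 3. ISL1 and SOX11 step up from siCTR to siMYCN to siHAND2, while KLF7 and TFAP2B are highest in siMYCN and lowest in siHAND2.

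**Figure D2:**
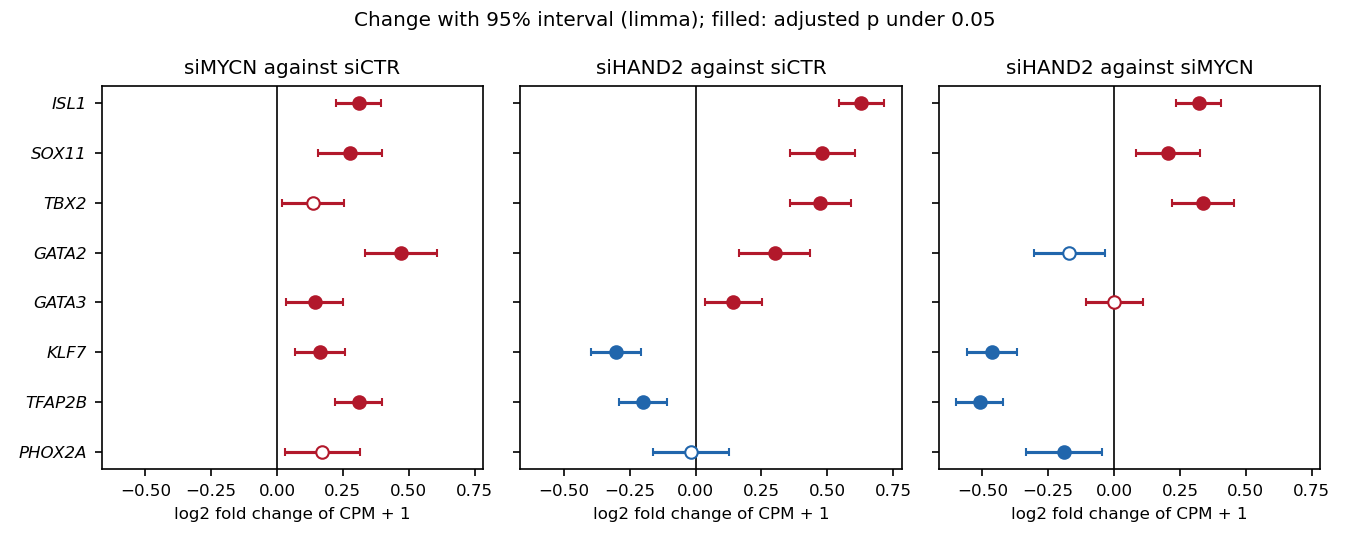
Log2 fold change of CPM + 1 with its 95% interval from limma for each factor in the 3 comparisons, where filled points passed an adjusted p of 0.05. All 8 points lie above 0 in siMYCN, and in siHAND2 KLF7, TFAP2B and PHOX2A lie below 0, of which PHOX2A did not pass.

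ISL1 encodes a LIM-homeodomain factor needed for sympathetic neuron development, and it lies on chromosome 5, 51383448 to 51394730 (GRCh38, plus strand). It stood at 198, 205 and 204 CPM (siCTR replicates 1 to 3), 245, 256 and 251 CPM (siMYCN) and 315, 299 and 325 CPM (siHAND2). No library of one group overlapped another group. Its group means came to 202 ± 3.50, 251 ± 5.19 and 313 ± 13.1 CPM (SD over 3 libraries). ISL1 rose by a log2 fold change of 0.31 in siMYCN (standard error 0.04, limma, adjusted p = 2.53e-05). Its rise of 0.63 in siHAND2 (adjusted p = 7.81e-09) was the largest of the 8 factors there. The knockdowns differed from each other by 0.32 (adjusted p = 1.75e-05). All 3 calls held under the 10 other settings and in the 9 fits without 1 library. In siHAND2 the absolute change of ISL1 exceeded that of 96.8% of tested genes.

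The noncoding gene AC010478.1 is on the opposite (minus) strand, and 115 bases separate its start at 51383332 from the start of ISL1. It stood at 84.7, 87.1 and 85.0 CPM (siCTR), 98.6, 111 and 105 CPM (siMYCN) and 118, 122 and 136 CPM (siHAND2). Its groups stood in the same order as those of ISL1, without overlap. The log2 fold changes were 0.29 (limma, adjusted p = 0.000674) and 0.54 (adjusted p = 1.22e-06), and siHAND2 exceeded siMYCN by 0.26 (adjusted p = 0.00215). The use of strand in counting is not given in the sources used here, but these genes do not overlap in the table. ISL2, the paralogue of ISL1, was low, at 7.27 to 7.36 CPM (siCTR), 6.48 to 7.30 CPM (siMYCN) and 5.72 to 6.45 CPM (siHAND2). It did not pass in either knockdown (-0.09, and -0.22 with limma's adjusted p = 0.0520), although its siHAND2 libraries all lay below those of siCTR.

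SOX11, a high-mobility-group factor of immature neurons and the most abundant of the 8 by CPM, lies on chromosome 2, 5692384 to 5701385 (plus strand). Its values were 579, 522 and 531 CPM (siCTR), 680.2, 618 and 679.7 CPM (siMYCN) and 769.6, 813 and 698 CPM (siHAND2). All libraries of siHAND2 were above all of siMYCN, and those above all of siCTR. SOX11 rose by 0.28 (limma, adjusted p = 0.00140) with siMYCN and by 0.48 (adjusted p = 9.30e-06) with siHAND2. SOX11 differed between the knockdowns by 0.20 (adjusted p = 0.0149), a call lost without siMYCN replicate 2 (0.16, adjusted p = 0.0773), without siHAND2 replicate 2 (0.15, adjusted p = 0.0835) and with no intensity trend (adjusted p = 0.0672). ISL1 and SOX11 were thus higher in both knockdowns and highest in siHAND2, a set of 3 calls that 1.35% of tested genes shared.

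SOX4, the related factor of the same SOXC group, ranged from 334 to 370.5 CPM (siCTR), 431 to 485 CPM (siMYCN) and 428 to 479 CPM (siHAND2). It rose by 0.40 (limma, adjusted p = 3.25e-05) with siMYCN and by 0.38 (adjusted p = 5.77e-05) with siHAND2, with a difference between the knockdowns of -0.02 (95% interval -0.14 to 0.09). The third SOXC gene, SOX12, passed in neither comparison (-0.02 and -0.07).

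TBX2, a T-box factor best known as a repressor, lies on chromosome 17, 61399843 to 61409466 (plus strand). It stood at 111, 107 and 116 CPM (siCTR), 131, 118 and 119 CPM (siMYCN) and 156, 165 and 144 CPM (siHAND2). The siHAND2 libraries stood apart from the other 6, whereas the lowest siMYCN library was close to the highest siCTR library. TBX2 rose by 0.47 in siHAND2 (standard error 0.06, limma, adjusted p = 6.42e-06) and exceeded its siMYCN level by 0.34 (adjusted p = 0.000208), and both calls held under every setting tried. Among tested genes 4.1% had these calls, higher in siHAND2 than in both other groups and not called in siMYCN. In siMYCN the value was 0.14 (95% interval 0.02 to 0.25, adjusted p = 0.0628). That value passed without siCTR replicate 3 (0.17, adjusted p = 0.0492), without siHAND2 replicate 3 (0.14, adjusted p = 0.0243), with the 2 groups alone (adjusted p = 0.0277) and with the replicate block (adjusted p = 0.0360).

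Its close relative TBX3 showed the other order. TBX3 stood at 170, 140 and 172 CPM (siCTR), 254, 216 and 253 CPM (siMYCN) and 173, 177 and 158 CPM (siHAND2), so that only siMYCN stood apart. It rose by 0.59 in siMYCN (limma, adjusted p = 1.70e-05), was 0.08 in siHAND2 (95% interval -0.08 to 0.24), and was lower in siHAND2 than in siMYCN by -0.51 (adjusted p = 7.86e-05). TBX2-AS1, which spans all of TBX2 on the other strand, was low (4.56 to 6.83 CPM) and did not follow it. It was called lower in siMYCN, by -0.27 (limma, adjusted p = 0.0329), and its value in siHAND2 was -0.06. The siMYCN call was lost with no filter on low values and without siCTR replicate 2 (-0.28), siCTR replicate 3 (-0.23), siMYCN replicate 2 (-0.20) or siMYCN replicate 3 (-0.30).

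GATA2 and GATA3 encode zinc finger factors that bind GATA sequences and act in sympathetic neurons to keep catecholamine enzyme genes on. GATA2 (chromosome 3, 128479427 to 128493201, minus strand) stood at 137, 123 and 137 CPM (siCTR), 199, 168 and 184 CPM (siMYCN) and 169.8, 169 and 150.4 CPM (siHAND2). Both knockdowns lay above siCTR without overlap, and they overlapped each other. GATA2 had the largest rise of the 8 in siMYCN, 0.47 (standard error 0.06, limma, adjusted p = 3.25e-05), and rose by 0.30 in siHAND2 (adjusted p = 0.00205). Its difference between the knockdowns, -0.17 (95% interval -0.31 to -0.04), did not pass (adjusted p = 0.0585). It passed without siMYCN replicate 2 (-0.23, adjusted p = 0.0176), without siHAND2 replicate 1 (-0.20, adjusted p = 0.0433) and with the replicate block (-0.17, adjusted p = 0.0137).

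The antisense gene GATA2-AS1 overlaps GATA2 by 3990 bases. It stood at 45.0, 42.2 and 45.4 CPM (siCTR), 56.2, 56.6 and 63.1 CPM (siMYCN) and 50.3, 51.3 and 49.7 CPM (siHAND2). The order was that of GATA2, with rises of 0.40 (limma, adjusted p = 2.80e-05) and 0.19 (adjusted p = 0.0141) and a called difference between the knockdowns of -0.21 (adjusted p = 0.00716). The siHAND2 call was lost without siCTR replicate 2 (0.16, adjusted p = 0.0810) or siHAND2 replicate 2 (0.18, adjusted p = 0.0525). Reads from the shared stretch could be counted to either gene where strand was not used.

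GATA3 (chromosome 10, 8045378 to 8075198, plus strand) changed least among the called factors. It stood at 102, 99.9 and 92.0 CPM (siCTR), 112, 104 and 108 CPM (siMYCN) and 108, 113 and 103 CPM (siHAND2). The knockdown libraries lay just above the siCTR libraries and overlapped each other. GATA3 rose by 0.14 with siMYCN (limma, adjusted p = 0.0369) and by 0.14 with siHAND2 (adjusted p = 0.0415), both close to the threshold, and the knockdowns differed by 0.001 (95% interval -0.11 to 0.11). The calls of GATA2 and GATA3, higher in both knockdowns and not called between them, were those of 7.27% of tested genes. The GATA3 call in siMYCN was lost under median-ratio rescaling (0.09, adjusted p = 0.232), quantile normalization (0.09, adjusted p = 0.242), no filter on low values (adjusted p = 0.0584) and no intensity trend (adjusted p = 0.0915), and 4 of the 9 fits without 1 library lost it, the lowest value being 0.10 without siCTR replicate 3. The others were those without siCTR replicate 2 (0.16), siMYCN replicate 1 (0.12) and siMYCN replicate 3 (0.14). The siHAND2 call was lost under the same 4 settings (0.10 and 0.12 under the rescalings), with the 2 groups alone (adjusted p = 0.0527) and without siCTR replicate 2 (0.16), siCTR replicate 3 (0.10), siMYCN replicate 3 (0.14), siHAND2 replicate 1 (0.14) or siHAND2 replicate 2 (0.11). The antisense gene GATA3-AS1 stayed between 17.0 and 20.3 CPM in every library. It was -0.14 in siMYCN (adjusted p = 0.124), opposite in sign to GATA3, and that value passed under median-ratio rescaling (-0.19), quantile normalization (-0.22) and without siCTR replicate 3 (-0.19).

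The cardiac and endodermal family member GATA4 was also detected. It measured 49.9 to 52.6 CPM in siCTR, 44.4 to 53.5 CPM in siMYCN and 29.5 to 34.0 CPM in siHAND2. GATA4 fell in siHAND2 by 0.66 on the log2 scale (limma, adjusted p = 1.19e-06), while GATA2 and GATA3 rose there. In siMYCN its value was -0.07 (adjusted p = 0.455). GATA6, between 2.38 and 3.46 CPM in every library, passed in neither knockdown (-0.14 and -0.11).

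KLF7 and TFAP2B moved in opposite directions in the knockdowns. KLF7, a Krüppel-like zinc finger factor with a role in sensory and sympathetic neuron development, lies on chromosome 2, 207074137 to 207167267 (minus strand). It stood at 196, 194 and 189 CPM (siCTR), 213, 211 and 225 CPM (siMYCN) and 148, 158 and 163 CPM (siHAND2). The groups did not overlap, with siMYCN highest and siHAND2 lowest. KLF7 fell by 0.30 in siHAND2 (standard error 0.04, limma, adjusted p = 8.98e-05) and lay lower in siHAND2 than in siMYCN by -0.46 (adjusted p = 6.92e-07), and both calls held under every setting tried. Its rise in siMYCN was 0.16 (adjusted p = 0.00955), a call lost under median-ratio rescaling (0.11, adjusted p = 0.0662), quantile normalization (0.10, adjusted p = 0.0816) and without siMYCN replicate 3 (0.13, adjusted p = 0.0549). The related KLF6 passed in neither comparison (0.09 and 0.06), and KLF7-IT1, annotated inside KLF7 on the same strand, stayed between 0.443 and 1.52 CPM and was not tested.

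TFAP2B, an AP-2 family factor of neural crest and sympathetic cells, lies on chromosome 6, 50818723 to 50847619 (plus strand). It stood at 78.9, 76.0 and 75.3 CPM (siCTR), 95.8, 94.4 and 95.8 CPM (siMYCN) and 65.1, 68.6 and 66.1 CPM (siHAND2). Its replicates were the closest together of the 8 factors in siMYCN, and no group overlapped another. TFAP2B rose by 0.31 in siMYCN (standard error 0.04, limma, adjusted p = 3.61e-05) and fell by 0.20 in siHAND2 (adjusted p = 0.00202). The knockdowns differed by -0.51 (adjusted p = 1.13e-07), the largest such difference among the 8, and all 3 calls held under every setting tried. Higher in siMYCN, lower in siHAND2 and different between them is a set of calls that 1.97% of tested genes had. None of its relatives TFAP2A, TFAP2C and TFAP2D was listed in the table, and TFAP2E was too low to be tested.

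The promoter sequences of TFAP2B, KLF7 and ISL1 are shown because these factors had the largest differences between the knockdowns among the 6 that the RefSeq promoter table holds (TBX2 and SOX11 are not in it). Each runs from 150 bases before to 15 bases after the RefSeq start site nearest to the start in the deposited table (GRCh38.p14, on the gene's strand, 5′ to 3′). Capitals mark 4 short words, each searched on both strands. They are the E-box word CACGTG, the further E-box words written as CATCTG or in another form as CAGCTG, and a GATA word spelled AGATAA.
TFAP2B, chr6:50818721-50818885, plus strand: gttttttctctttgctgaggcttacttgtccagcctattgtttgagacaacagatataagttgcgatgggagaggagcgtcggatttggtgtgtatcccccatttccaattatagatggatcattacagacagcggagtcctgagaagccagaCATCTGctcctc
KLF7, chr2:207167232-207167396, minus strand: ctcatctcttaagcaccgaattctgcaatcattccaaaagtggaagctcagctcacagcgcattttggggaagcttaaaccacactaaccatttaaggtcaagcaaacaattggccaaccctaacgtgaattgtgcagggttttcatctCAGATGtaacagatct
ISL1, chr5:51383298-51383462, plus strand: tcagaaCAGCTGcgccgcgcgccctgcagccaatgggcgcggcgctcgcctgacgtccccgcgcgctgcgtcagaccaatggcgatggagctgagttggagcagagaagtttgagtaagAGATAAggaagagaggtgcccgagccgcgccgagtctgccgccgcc

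The word CATCTG, which reads on the opposite strand as CAGATG, begins at position 4 of TFAP2B and at position -1 of KLF7, counted from the start site. Of all 35116 RefSeq promoter windows of 300 bases, 14.7% hold it. ISL1 holds CAGCTG at -144, a word in 17.9% of windows, and AGATAA at -31, a word in 10.3% of windows. The windows of PHOX2A, GATA2 and GATA3 hold none of these 4 words, and CACGTG, which 7.26% of windows hold, was in none of the 6. The general E-box form CANNTG (N for any base) is in 68.7% of windows. Those of ISL1, TFAP2B, KLF7 and PHOX2A (CACTTG at -1) hold it, and those of GATA2 and GATA3 do not. The start site used for PHOX2A lay 1488 bases from its start in the deposited table. The windows of TFAP2B and KLF7 had a GC content of 43.0% and 42.7%, those of the other 4 from 60.7% to 73.7%, and the median of all windows was 58.7%. These letters are a description of the reference sequence, and binding was not measured.

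PHOX2A encodes a paired-type homeodomain factor that activates the dopamine beta-hydroxylase gene DBH, and it was the only one of the 8 that passed against siCTR in neither knockdown. It lies on chromosome 11, 72239077 to 72245664 (minus strand). It stood at 89.2, 90.8 and 85.7 CPM (siCTR), 105, 96.7 and 98.1 CPM (siMYCN) and 97.2, 90.2 and 76.2 CPM (siHAND2). Of its groups siHAND2 spread most, 87.9 ± 10.7 CPM (SD, n = 3 libraries), around a mean close to the 88.6 ± 2.59 CPM of siCTR. The value in siHAND2 was -0.02 (95% interval -0.16 to 0.13, limma, adjusted p = 0.863) and turned to 0.08 without siHAND2 replicate 3. In siMYCN it was 0.17 (95% interval 0.03 to 0.32, adjusted p = 0.0579), and it passed without siHAND2 replicate 1 (0.17, adjusted p = 0.0262) or siHAND2 replicate 3 (0.17, adjusted p = 0.00517), with the 2 groups alone (adjusted p = 0.00501) and with the replicate block (adjusted p = 0.0109).

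The direct comparison put PHOX2A lower in siHAND2 than in siMYCN by -0.19 (limma, adjusted p = 0.0473), with overlapping libraries. This call was lost in 8 of the 9 fits without 1 library, with values from -0.09 without siHAND2 replicate 3 to -0.21. The libraries left out in the other 7 were siCTR replicates 1, 2 and 3 (-0.19 each), siMYCN replicates 1 (-0.15), 2 (-0.21) and 3 (-0.20) and siHAND2 replicate 2 (-0.21). It was also lost under 6 of the 10 other settings. Not called in either knockdown and lower in siHAND2 than in siMYCN is a set of calls that 2.22% of tested genes had. INPPL1, which overlaps the end of PHOX2A by 71 bases on the other strand, rose in both knockdowns (0.35, adjusted p = 2.01e-05, and 0.28, adjusted p = 0.000187). The remaining tested neighbours, AP000593.4 near PHOX2A (0.09 and 0.09) and BCAS3 near TBX2 (0.11 and 0.09), passed in neither knockdown.

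**Figure D3:**
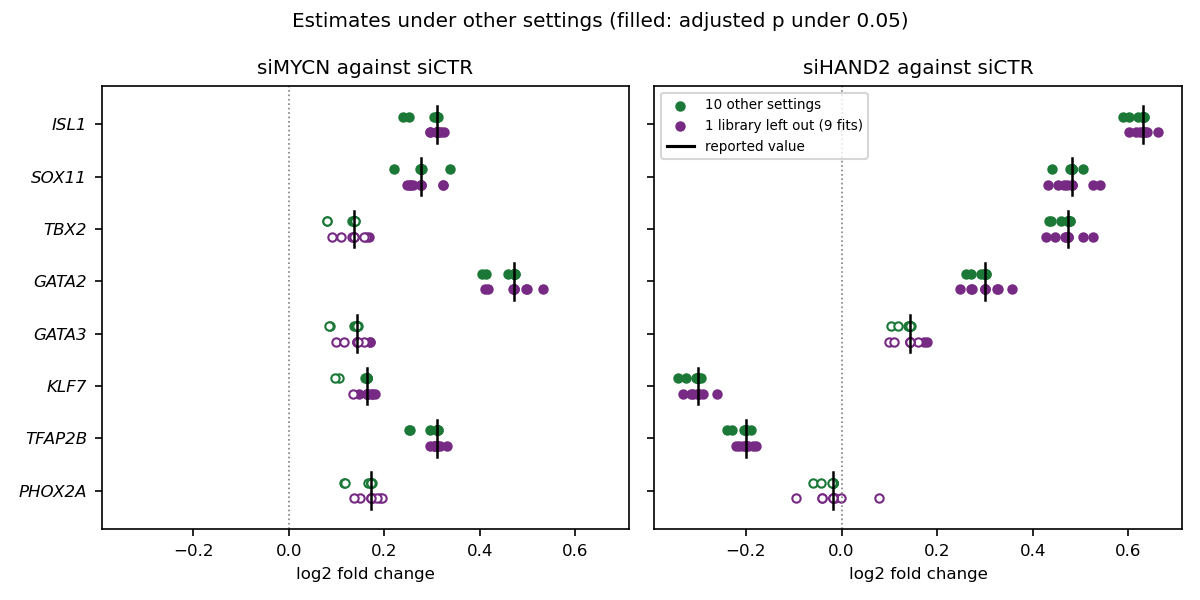
Log2 fold changes of the 8 factors against siCTR under 10 other settings and in 9 fits without 1 library, with the reported value as a vertical line and filled points for an adjusted p under 0.05. ISL1, SOX11, GATA2 and TFAP2B are filled throughout in both comparisons, GATA3 is open in part in both, and PHOX2A in siHAND2 lies on both sides of 0.

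Other factors of the noradrenergic state were read from a list of 12 genes, of which 9 were tested. In siMYCN 5 of the 9 rose and none fell, and in siHAND2 3 rose and 1 fell. Among all tested genes 24.5% were called higher and 11.4% lower in siMYCN, and 18.1% higher and 11.8% lower in siHAND2. The list's medians were 0.16 and 0.13, against 0.06 and 0.04 over all tested genes. ZNF536, a neuronal zinc finger gene, lay at 53.6 to 54.3 CPM in siCTR, at least 80.7 CPM in siMYCN (0.59, limma, adjusted p = 1.11e-07) and 61.7 to 67.1 CPM in siHAND2 (0.26, adjusted p = 0.000419). HAND1, the paralogue of HAND2, fell in siHAND2 from 16.5 to 17.9 CPM to 10.1 to 12.1 CPM (-0.60, adjusted p = 8.96e-06) and was 0.11 in siMYCN (adjusted p = 0.275). SATB1, a chromatin organizer, rose in siHAND2 by 0.48 (adjusted p = 1.64e-07), and the Notch target HEY1 rose in siMYCN by 0.60 (adjusted p = 5.17e-05).

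The cofactors that GATA and LIM-homeodomain proteins bind, with E-proteins and MEIS homeodomain partners, formed a list of 12 genes, of which 11 were tested. In siHAND2 9 of the 11 rose and none fell, beside 18.1% of all tested genes called higher (median 0.29, against 0.04 over all tested genes). In siMYCN 5 rose and 2 fell, beside 24.5% called higher and 11.4% called lower (median 0.04 against 0.06). LMO4, a LIM-only adaptor, measured 73.7 to 83.4 CPM in siCTR, 99.1 to 109 CPM in siMYCN and 138 to 141 CPM in siHAND2. Its changes were 0.41 (limma, adjusted p = 1.40e-05) and 0.81 (adjusted p = 5.56e-09), in the order of ISL1. LMO3 was low and went both ways, from 1.23 to 1.83 CPM in siCTR down to 0.524 to 0.857 CPM in siMYCN and up to 4.37 to 4.58 CPM in siHAND2. LDB2, a LIM-domain-binding scaffold, also fell in siMYCN (-0.61, adjusted p = 3.37e-06) and rose in siHAND2 (0.29, adjusted p = 0.00371). LMO1, a LIM-only gene, lay at 12.7 to 14.9 CPM in siCTR, 12.9 to 15.3 CPM in siMYCN and 21.2 to 23.3 CPM in siHAND2, and rose in the last by 0.67 (adjusted p = 6.71e-06).

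Catecholamine and sympathetic genes, which include known targets of PHOX2A, GATA and HAND factors, were read from a list of 11 genes, of which 9 were tested. In siMYCN 8 of the 9 rose and none fell, and in siHAND2 none rose and 6 fell, beside 24.5% of all tested genes called higher in siMYCN and 11.8% called lower in siHAND2. The median changes were 0.41 and -0.42, against 0.06 and 0.04 over all tested genes. DBH, the enzyme that makes noradrenaline, measured 243 to 277 CPM in siCTR, 325 to 361 CPM in siMYCN and 127 to 137 CPM in siHAND2 (0.38, limma, adjusted p = 4.46e-05, and -1.01, adjusted p = 6.84e-10). RET, a receptor tyrosine kinase of sympathetic neurons, measured 363 to 381, 639 to 683 and 253 to 267 CPM (0.83 and -0.50). The noradrenaline transporter gene SLC6A2 changed by 1.10 and -0.42, and the decarboxylase gene DDC by 0.30 and -0.25, all past the threshold. CHGB, a granule protein gene, rose in siMYCN by 0.70 (adjusted p = 8.52e-07) and was -0.03 in siHAND2 (adjusted p = 0.738). Of the 8 factors, KLF7 and TFAP2B were called in both knockdowns in the directions of DBH, RET, SLC6A2 and DDC. With siHAND2 called below siMYCN as well, this was the set of calls of 1.97% of tested genes. The KLF7 call in siMYCN was lost under median-ratio rescaling, quantile normalization and without siMYCN replicate 3. PHOX2A passed in neither knockdown (0.17 in siMYCN). Its value in siHAND2 was near 0 (-0.02, limma, adjusted p = 0.863), and the sign turned without siHAND2 replicate 3.

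**Figure D4:**
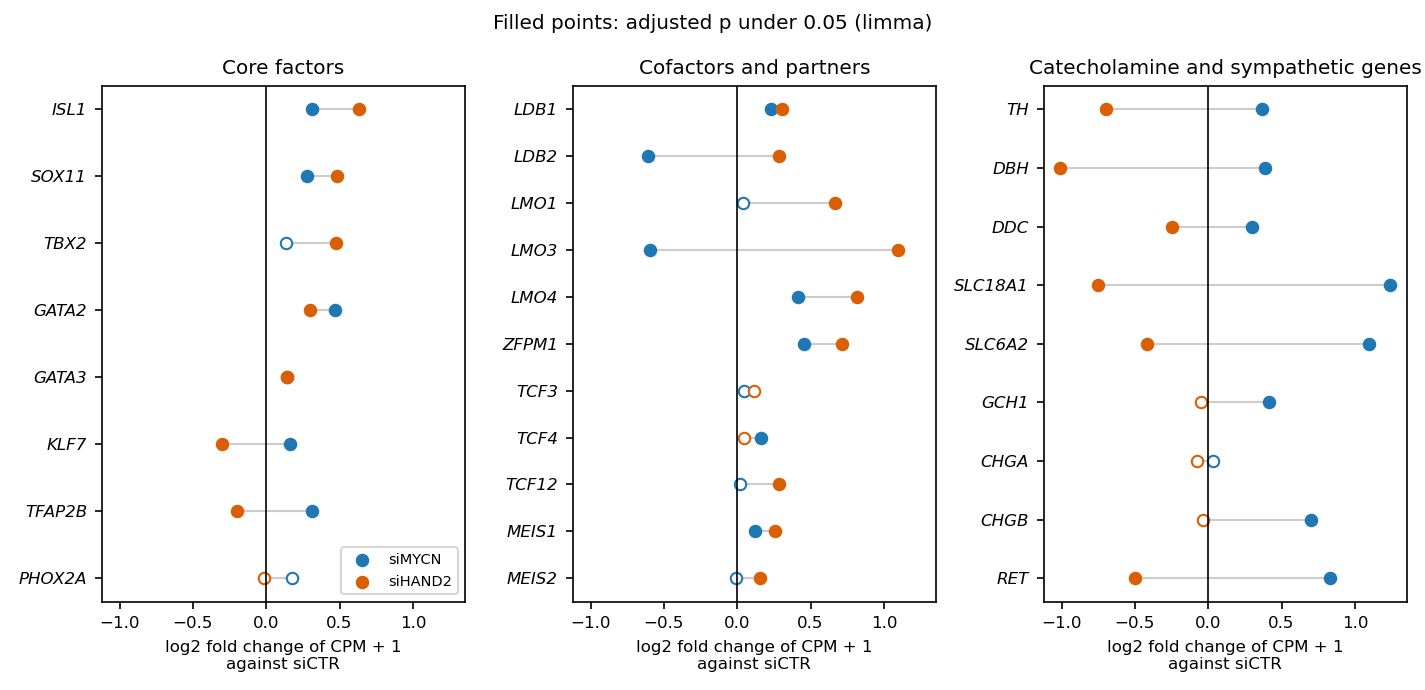
Log2 fold change against siCTR in siMYCN (blue) and siHAND2 (orange) for the 8 factors, 11 tested cofactors and partners and 9 tested catecholamine and sympathetic genes, where filled points passed an adjusted p of 0.05. The cofactors lie mostly to the right in siHAND2, and the catecholamine genes lie mostly to the right in siMYCN and mostly to the left in siHAND2.

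The factors of the mesenchymal state formed a list of 16 genes, of which 9 were tested. The 12 in the table summed to 216 to 225 CPM in siCTR, 202 to 218 CPM in siMYCN and 214 to 228 CPM in siHAND2. TWIST1, which passed in neither knockdown, made up 114 to 126 CPM of the sum in each library. In siMYCN 1 of the 9 rose and 1 fell, beside 35.9% of all tested genes called in either direction, and in siHAND2 3 rose and 3 fell, beside 29.9%. NR3C1, the glucocorticoid receptor gene, went from 5.05 to 5.36 CPM in siCTR to 9.08 to 11.3 CPM in siHAND2 (0.90, limma, adjusted p = 1.65e-06). SNAI2 rose there by 0.46 (adjusted p = 0.000475), RUNX1 changed by -0.86 (adjusted p = 0.000101) and MAFF by -0.39 (adjusted p = 0.00371). In siMYCN SIX4 changed by -0.67 (adjusted p = 8.93e-05). Of a list of 4 cholinergic genes 3 were in the table. CHAT stayed between 0.0476 and 0.374 CPM in every library and was not tested. The 2 tested genes were ACHE and SLC18A3. Both rose in siMYCN (1.17, limma, adjusted p = 4.43e-08, and 0.56, adjusted p = 0.00156), beside 24.5% of all tested genes called higher. Neither passed in siHAND2 (-0.10 and -0.09), beside 29.9% of all tested genes called in either direction.

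The genes whose profile over the 9 libraries was most like that of a factor were found by the Pearson correlation of log2(CPM + 1) with 11200 other genes of at least 5 CPM on average. The 9 points form 3 groups, so the measure follows mainly the order of the group means, and the highest of many values is high by selection. TFAP2B was nearest to the protocadherin gene PCDH17 (r = 0.998) and to DOC2B (r = 0.995), and KLF7 to ADAM12 (r = 0.989) and RASGRF2 (r = 0.989). ADAM12 measured 16.5 to 17.7 CPM in siCTR, 26.6 to 27.6 CPM in siMYCN and 6.48 to 8.86 CPM in siHAND2, and its log2 fold changes (0.65 and -1.07) were larger in size than those of KLF7. ISL1 was nearest to the kinase gene PLK2 (r = 0.992) and to the sodium channel gene SCN9A (r = 0.992). PLK2 measured 165 to 166, 232 to 244 and 372 to 417 CPM in the 3 groups. For SOX11 the nearest were SLAIN2 (r = 0.985) and the forkhead gene FOXC1 (r = 0.978), for TBX2 ZFYVE26 (r = 0.982) and DENND2B (r = 0.981), and for GATA2 IGLON5 (r = 0.986) and IRGQ (r = 0.984). PHOX2A was nearest to ATP13A2 (r = 0.985) and HIRIP3 (r = 0.979), and GATA3 had the lowest values, with TTC38 (r = 0.946) and XKR7 (r = 0.945).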

How the data were processed

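RNA sequencing of 9 LAN5 libraries (3 per group) was deposited by the authors as 1 table of CPM values, which hold a constant of 0.0001 in every cell. Per the submitters' processing notes STAR 2.5.1 and Partek were used, and the builds hg19 and GRCh37 are named. The positions in the table are GRCh38 positions, since 91.4% of starts of matched RefSeq genes lay within 5000 bp, and they are printed as such. The counting rule, strand use and annotation are not given in the sources used here. Of the low values, 79.6% to 81.1% were whole multiples (within 0.02 of a read, up to 20 reads) of a smallest step, too few for a count test, so the step served only for depth. The coefficient of variation from counting is 17.5% to 21.8% at 1 CPM. Reads copied by PCR are not independent, so this covers counting error only.

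Genes that reached 1 CPM in 3 or more libraries (14495 of 25084) were fitted as log2(CPM + 1) with limma 3.58.1 in R 4.3.3, with 1 mean per group over all 9 libraries, an intensity trend and Benjamini-Hochberg adjustment over all tested genes (two-sided, threshold 0.05). Adding 1 CPM understates the change of low genes. Intervals are limma's 95% intervals without adjustment. In simulated CPM for siMYCN against siCTR, 24.9% of 197 changed genes were recovered at a log2 change of 0.3. At 0.5 it was 77.8% of 198 and at 1 it was 98% of 197, of about 14400 tested. In the data a far larger share of genes was called in that comparison (35.9%). The simulation also used 1 fixed setting of spread for all genes, so these shares need not hold for the data. The 8 factors and the gene lists were chosen with earlier results of these data known, and some other circuit factors, and 1 gene of the cofactor list, were left out and are not reported here. Named were the 8 factors, MYCN and HAND2, genes within 20000 bases of a factor, paralogues of at least 1 CPM on average, the 3 genes of smallest p per list and knockdown, and the 2 genes most like each factor. Some further genes, such as TWIST1 and CHAT, were named outside this rule. Neighbours too low to be tested are, but for 1, not described. Promoter sequences are those of RefSeq (GRCh38.p14), and transcript lengths for levels per kb come from a GENCODE annotation lifted to GRCh37, by symbol. The settings tried are given in the closing section.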

Additional observations from a re-analysis of the deposited data

How the results depend on the processing

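The settings tried were pseudocounts of 0.1 and 5, no filter, a filter of 5 CPM, quantile normalization, median-ratio rescaling, the 2 groups alone, no intensity trend, the replicate block, precision weights, and each library left out. The number of factors called stayed within 1.5 times of the reported one in all of them: 4 to 8 of 8 in siMYCN, 6 to 7 in siHAND2 and 4 to 7 between the knockdowns. The labels tie no replicate number to a shared culture or day, and a pairing was to be accepted only if every same-numbered pair of libraries had deviations correlated above 0.1. In 6 of 9 pairs, those of replicates 1 and 3, this was met (0.133 to 0.305), and in the 3 pairs of replicate 2 it was not (-0.0399 to 0.0757). Values above 0.1 also occurred between different numbers, siCTR 2 with siHAND2 1 (0.119) and siMYCN 2 with siHAND2 3 (0.141). The block is therefore given as an alternative and the pairing is undecided. With the replicate block 5895, 5089 and 4689 genes were called (siMYCN, siHAND2 and siHAND2 against siMYCN) in place of 5209, 4339 and 3892, and all 8 factors passed in siMYCN. The settings were not tried on the genes most like each factor, on TWIST1 or on genes too low to be tested. Among the other genes named, signs turned only for values that had not passed. In siHAND2 they turned for GATA3-AS1 (-0.0171 with median-ratio rescaling, -0.0272 with quantile normalization). Between the knockdowns they turned for BCAS3 (0.00385 and 0.0103 under the same rescalings) and AP000593.4 (-0.0146 with precision weights). In siMYCN they turned for SNAI2 (0.00880 with precision weights) and LMO1 (-0.0114 with median-ratio rescaling, -0.0380 with quantile normalization). Without 1 library they turned in siMYCN for AP000593.4 (-0.0630 to 0.187), SNAI2 (-0.0908 to 0.0952), LMO1 (-0.0206 to 0.109) and SOX12 (-0.0889 to 0.0227). In siHAND2 they turned for PHOX2A (-0.0942 to 0.0794), AP000593.4 (-0.0556 to 0.188), CHGB (-0.114 to 0.0244), GATA3-AS1 (-0.0376 to 0.0668), HEY1 (-0.0611 to 0.0351), SLC18A3 (-0.170 to 0.0606) and TBX3 (-0.0133 to 0.134). Between the knockdowns they turned for GATA3 (-0.0333 to 0.0352), AP000593.4 (-0.0941 to 0.114), BCAS3 (-0.0364 to 0.00616), GATA6 (-0.0554 to 0.0972) and SOX4 (-0.0701 to 0.0243). The cause was not tested. Changes of about 0.14 are smaller than the smallest change simulated, 0.3. The simulation changed far fewer genes than were called in the data, so how often this fit finds such changes is not known.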
